A study of Mus musculus with 3 samples.

Results

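The striated-muscle microRNAs (miRNAs) miR-133a, miR-133b, miR-1a, miR-206, miR-208a, miR-208b and miR-499 were followed through 8 mature strands in mouse epididymal white fat. The strands were taken by name from a table of 1251 mature miRNAs: miR-133a-3p, miR-133a-5p, miR-133b-3p, miR-1a-3p, miR-206-3p, miR-208a-3p, miR-208b-3p and miR-499-5p, each of which had a row. The samples were the visceral (epididymal) depots of 3 C57BL/6J mice, numbered 1, 3 and 9, profiled by small RNA sequencing. All 3 had received, from 5 to 6 weeks of age and for 11 weeks, a high-fat diet with 45% of energy from fat, 20% from protein and 35% from carbohydrate, supplemented with 6.75% EPA (eicosapentaenoic acid, a long omega-3 fat), and were fasted for 4 h before the tissue was taken. The question set by the study was which miRNAs this fat expresses on that diet. No other diet was analysed here, so the values describe levels and the spread between mice and not an effect of EPA. The labels do not state beyond the titles that the samples come from separate animals, and the spread may in part be technical.

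Striated muscle carries a set of miRNAs that are rare in most other tissues. miR-1 and miR-133a are made from shared primary transcripts in heart and skeletal muscle, where miR-1 promotes differentiation and miR-133 favours myoblast proliferation. miR-206 and miR-133b form a similar pair in skeletal muscle, and miR-208a, miR-208b and miR-499 lie inside myosin heavy chain genes and act in fibre type and cardiac gene programmes. In fat precursors and satellite cells miR-133 is known as a repressor of Prdm16, the transcriptional regulator that directs cells to the brown fat fate.

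Mature sequences were found for 5 of the 8 strands in a RefSeq table on GRCm38.p6. They are shown because the seed, bases 2 to 8, is what selects targets and groups these miRNAs into families. The seed is in capitals and each strand is written 5′ to 3′.
miR-133b-3p: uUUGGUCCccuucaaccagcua
miR-206-3p: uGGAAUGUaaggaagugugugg
miR-208a-3p: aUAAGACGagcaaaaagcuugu
miR-208b-3p: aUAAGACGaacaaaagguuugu
miR-499-5p: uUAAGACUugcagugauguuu
The sequences fall into 3 groups. miR-133b-3p has the seed UUGGUCC, which is known to be that of miR-133a-3p as well, and miR-206-3p has GGAAUGU, known to be shared with miR-1a-3p. miR-208a-3p and miR-208b-3p have the same seed, UAAGACG, and are identical at 19 of 22 positions. Counted from the 5′ end with miR-208a-3p first, they differ by G10A, A16G and C18U. The seed of miR-499-5p equals that of miR-208a-3p at 6 of 7 bases, the difference being G8U.

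The hairpins lie in pairs on mouse assembly GRCm38 (mm10), by GENCODE M21. Mir1a-1 (chromosome 2, 180389048 to 180389124, plus strand) and Mir133a-2 (180398379 to 180398482, plus strand) are separated by 9254 bases and lie in no annotated gene other than their own. Mir1a-2 (chromosome 18, 10785481 to 10785552, minus strand) and Mir133a-1 (10782909 to 10782976, minus strand) are 2504 bases apart in introns of the non-coding gene Mir133a-1hg, opposite to an intron of Mib1. Mir206 (chromosome 1, 20679010 to 20679082, plus strand) and Mir133b (20682769 to 20682887, plus strand) are 3686 bases apart and overlap exons of the long non-coding RNA Gm28653. Mir208a (chromosome 14, 54949060 to 54949142, minus strand) is in an intron of Myh6 and Mir208b (54975700 to 54975776, minus strand) in an intron of Myh7. Mir499 (chromosome 2, 155622880 to 155622958, plus strand) is in an intron of Myh7b. The table gives 1 value for each mature strand, so what each of the paired loci contributes to miR-133a-3p or miR-1a-3p cannot be told apart.

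The values are log2 normalized counts as deposited. The lowest value of the table, 3.32, is the log2 of 10 and is called the floor. It was taken as the value of a miRNA without detected reads, which the sources used here do not state. The columns of the 3 mice hold almost the same sorted values: at 85 of the 100 highest ranks the 3 columns were equal within 1e-06. A value is therefore in essence a rank. The value of miR-133a-3p in mouse 1, 11.94, is the value that stood at rank 54 in every mouse, and its value in mouse 3, 16.38, is that at rank 8 in every mouse. Read depth per library could not be recovered from such values, so no counting interval is given. Between 316 and 336 miRNAs stood above the floor in a mouse.

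miR-133a-3p was an abundant miRNA of this fat in mice 3 and 9 and much lower in mouse 1. Its log2 value was 11.94 in mouse 1, 16.38 in mouse 3 and 16.02 in mouse 9, with a mean of 14.78 ± 2.47 (SD, n = 3). Mice 3 and 9 lay close together and mouse 1 far below them. In rank it stood 54th in mouse 1, 8th in mouse 3 and 10th in mouse 9.

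On the linear scale, the power of 2 less 10, the normalized count of miR-133a-3p above the floor was 3908 in mouse 1, 85150 in mouse 3 and 66274 in mouse 9. It made up 0.162%, 3.54% and 2.76% of the summed normalized counts of these mice. The ratio of mouse 3 to mouse 1 was 21.8 and that of mouse 9 to mouse 1 was 17.0, while mouse 9 stood at 0.778 times mouse 3. Since a value is in essence a rank, these ratios and shares are not ratios or shares of read counts. In mouse 1, too, miR-133a-3p was among the 100 highest miRNAs.

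miR-133b-3p, the paralog with the same seed, was also lowest in mouse 1, at a far lower level. Its log2 value was 3.83 in mouse 1, 9.49 in mouse 3 and 9.65 in mouse 9, with a mean of 7.65 ± 3.32 (SD, n = 3). The value in mouse 1 lies just above the floor, at 4.18 normalized counts, and 16 other miRNAs of that mouse had the same value. In mice 3 and 9 it reached 707.8 and 794.5 normalized counts at ranks 102 and 98.

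miR-133a-5p, the other strand of the miR-133a hairpin, was at the floor in mouse 1 and had log2 values of 6.75 in mouse 3 and 6.91 in mouse 9. These are 97.8 and 111 normalized counts above the floor. Thus the 3 strands of the miR-133 family separated mouse 1 from mice 3 and 9 in the same direction. For each strand mice 3 and 9 lay near each other. The strands are not independent readings: miR-133a-3p and miR-133a-5p share a hairpin, and miR-133b-3p is near-identical to miR-133a-3p.

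miR-1a-3p, which shares its primary transcripts with miR-133a, was at or near the floor. Its log2 value was 3.32 (the floor) in mouse 1, 5.53 in mouse 3 and 3.44 in mouse 9. On the linear scale mouse 3 had 36.3 normalized counts above the floor, a value that 4 other miRNAs of the mouse also had, and mouse 9 had 0.833. Unlike miR-133a-3p it was low in mouse 9.

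The other muscle strands were also low or not detected. miR-206-3p, of skeletal muscle, was at the floor in mice 1 and 9 and at 3.83 log2 units in mouse 3, or 4.18 normalized counts. miR-208b-3p, encoded in the slow and embryonic cardiac myosin gene Myh7, was at the floor in mice 1 and 3 and at 5.20 in mouse 9, or 26.8 normalized counts. miR-208a-3p, of the cardiac gene Myh6, and miR-499-5p, of Myh7b, were at the floor in 3 of 3 mice. A value at the floor is a limit of detection and not a proof of absence from the tissue.

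**Figure D1:**
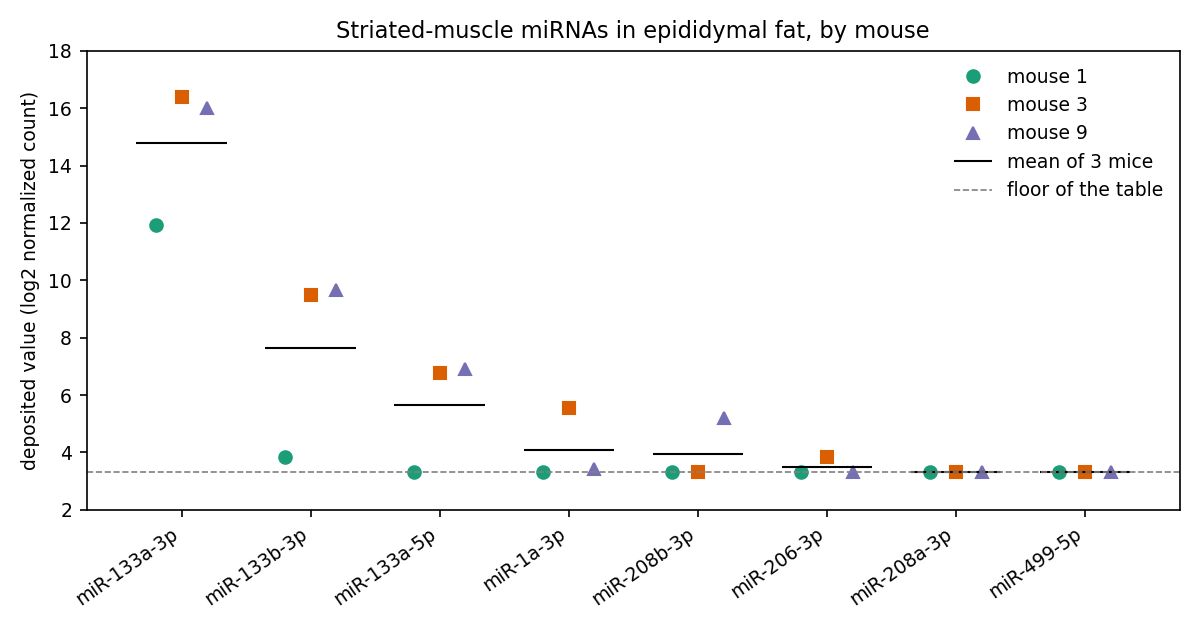
Deposited log2 normalized count (vertical axis) of the 8 muscle miRNAs (horizontal axis) in each of the 3 mice, with the mean of the mice as a line and the floor of the table as a dashed line. miR-133a-3p lies at 11.94 in mouse 1 and at 16.38 and 16.02 in mice 3 and 9, while miR-208a-3p and miR-499-5p lie at the floor in all mice.

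Of the 8 strands, 2 were above the floor in all 3 mice (miR-133a-3p and miR-133b-3p), 2 in 2 mice, 2 in 1 mouse and 2 in none. Of all 1251 miRNAs listed, 287 (22.9%) were above the floor in all mice, against 25.0% of the muscle strands. Without mouse 1 the count of muscle strands above the floor throughout was 4, and with a minimum of 10 normalized counts it was 1, miR-133a-3p. The median log2 value over the 8 strands was 3.32 in mouse 1, 4.68 in mouse 3 and 4.32 in mouse 9, beside 3.32 over all miRNAs listed in each mouse. None of the 10 other strands and paralogs with a row was above the floor in any mouse: miR-1a-1-5p, miR-1a-2-5p, miR-1b-5p, miR-1b-3p, miR-133b-5p, miR-133c, miR-206-5p, miR-208a-5p, miR-208b-5p and miR-499-3p.

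The summed share of the 8 strands was 0.163% in mouse 1, 3.57% in mouse 3 and 2.79% in mouse 9, with a mean of 2.18% ± 1.79 (SD, n = 3). miR-133a-3p alone was 99.9%, 99.0% and 98.6% of that sum. The remaining 7 strands together held 0.000174%, 0.0352% and 0.0388% of the summed normalized counts. The share of the group in this fat is therefore the share of miR-133a-3p.

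**Figure D2:**
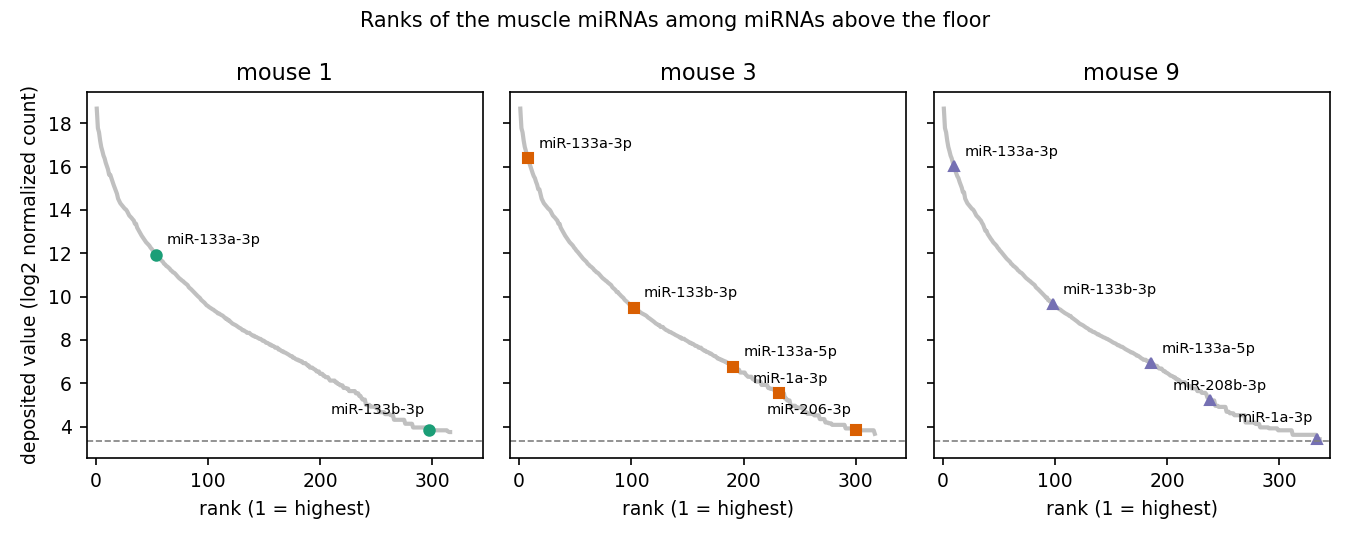
Deposited log2 normalized count (vertical axis) against rank (horizontal axis, 1 is the highest) for all miRNAs above the floor in each mouse (grey line), with the muscle miRNAs above the floor as points. miR-133a-3p stands at rank 54 in mouse 1, 8 in mouse 3 and 10 in mouse 9, and miR-133b-3p at 297, 102 and 98.

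By mean log2 value the order was miR-133a-3p, miR-133b-3p, miR-133a-5p, miR-1a-3p, miR-208b-3p, miR-206-3p and, at the floor, miR-208a-3p and miR-499-5p. miR-133a-3p stood above miR-133b-3p in 3 of 3 mice, and so did miR-133b-3p above miR-133a-5p. In mouse 1 the latter rests on 4.18 normalized counts of miR-133b-3p, with miR-133a-5p at the floor. miR-133a-5p stood above miR-1a-3p in 2 mice, with both at the floor in mouse 1. miR-1a-3p and miR-208b-3p changed places between mice 3 and 9, as did miR-208b-3p and miR-206-3p, so the order of these 3 was not the same from mouse to mouse. No test was made on the order, since an exact sign-flip test over 3 mice cannot give a two-sided p below 0.25.

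The distance between miR-133a-3p and its paralog was 8.11 log2 units in mouse 1, 6.89 in mouse 3 and 6.36 in mouse 9, with a mean of 7.12 ± 0.90 (SD, n = 3). The normalized count of miR-133b-3p was 0.107% of that of miR-133a-3p in mouse 1, 0.831% in mouse 3 and 1.20% in mouse 9. The 2 strands are near-identical, and how the authors' counting divides reads between them is not given in the sources used here, so the level of miR-133b-3p is uncertain. Levels of different strands were compared without any correction for unequal capture of sequences in library preparation.

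The distance between miR-133a-3p and miR-1a-3p, products of the same paired loci, was wider and less even. It was 8.61 log2 units in mouse 1 (miR-1a-3p at the floor), 10.85 in mouse 3 and 12.58 in mouse 9, with a mean of 10.68 ± 1.99 (SD, n = 3). In mouse 3, where miR-1a-3p was highest, its normalized count was 0.0426% of that of miR-133a-3p, and in mouse 9 it was 0.00126%. For the other pair of neighbours, miR-133b-3p had 707.8 normalized counts in mouse 3 beside 4.18 for miR-206-3p. In mouse 9 it had 794.5 with miR-206-3p at the floor. In both kinds of pair the miR-133 strand was the higher one in 3 of 3 mice. For miR-133b-3p in mouse 1 this rests on 4.18 normalized counts, just above the floor, with miR-206-3p at the floor.

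The miR-133a hairpin kept its 3p strand. The log2 difference of 5p to 3p was -8.61 in mouse 1, -9.63 in mouse 3 and -9.10 in mouse 9, the first resting on a 5p strand at the floor. In mice 3 and 9 the 5p strand had 0.115% and 0.167% of the normalized count of the 3p strand. The mean log2 difference was -9.11 (moderated SE from limma 0.25, n = 3), with the 3p strand higher in 3 of 3 mice. Its adjusted p was 2.82e-06 by limma (moderated test of the mean against 0, two-sided, Benjamini-Hochberg adjustment over 129 hairpins). The moderated SE draws on the variance of all hairpins tested and is not that of the 3 values alone. The 3p strand was called higher in 46.5% of those hairpins and the 5p strand in 51.2%, so a preference for 3p is not particular to miR-133a. The median size of the log2 difference over the 129 hairpins was 5.14, and 5 hairpins leaned further to 3p than miR-133a.

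For miR-133b the 5p strand was at the floor throughout, so its log2 differences of -0.50, -6.17 and -6.33 in mice 1, 3 and 9 repeat the 3p level on this scale. Their mean was -4.33 (moderated SE 1.29, n = 3), with an adjusted p of 0.0239 by the same limma test. With 5p at the floor no difference could be above 0, so the sign was fixed beforehand. The hairpin also passed the minimum mean only through mice 3 and 9, so this p does not measure a strand preference. Without mouse 3 (limma adjusted p 0.243) or without mouse 9 (0.0820) the call did not hold.

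Between mouse 3 and mouse 1, 4 of the 8 strands were higher in mouse 3 by at least 1 log2 unit (miR-133a-3p, miR-133b-3p, miR-133a-5p and miR-1a-3p) and 0 were lower. Of the 363 miRNAs above the floor in at least 1 mouse, 4.96% were higher and 5.23% lower by that measure. Between mouse 9 and mouse 1, 4 strands were higher in mouse 9 (miR-133a-3p, miR-133b-3p, miR-133a-5p and miR-208b-3p) and 0 lower, beside 5.79% of the 363 higher and 5.23% lower. Between mouse 9 and mouse 3, miR-208b-3p was higher in mouse 9 and miR-1a-3p lower, with 6.89% of the 363 in each direction. Each side is 1 mouse, so there is no test, and the 3 comparisons share mice.

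On the deposited scale the miR-133 strands had the largest increases over mouse 1. Among increases over mouse 1, miR-133b-3p had the largest of the 363 miRNAs in mouse 3 (5.66 log2 units) and in mouse 9 (5.83). miR-133a-3p was the next in both, with 4.44 and 4.08 log2 units, and miR-133a-5p the next after it, with 3.43 and 3.59. Decreases of similar size occurred outside the muscle strands, such as that of miR-375-3p, by -5.58 and -4.78 log2 units. The median difference over the 363 was 0 in both comparisons. Over the 8 strands it was 1.36 from mouse 1 to mouse 3 and 0.998 from mouse 1 to mouse 9. From mouse 3 to mouse 9 the miR-133 strands differed little: by -0.36 for miR-133a-3p, 0.16 for miR-133b-3p and 0.16 for miR-133a-5p, beside a median of 0.09 over all 363.

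Of the 363 miRNAs, 7 (1.93%) were at least 1 log2 unit higher in both mouse 3 and mouse 9 than in mouse 1. Of these 7, 3 were the miR-133 strands, which are not independent of each other. The other 4 were chosen after their values were seen: miR-335-5p, miR-338-5p, miR-30d-3p and miR-27a-5p. No muscle strand was among the 6 miRNAs that were lower in both.

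**Figure D3:**
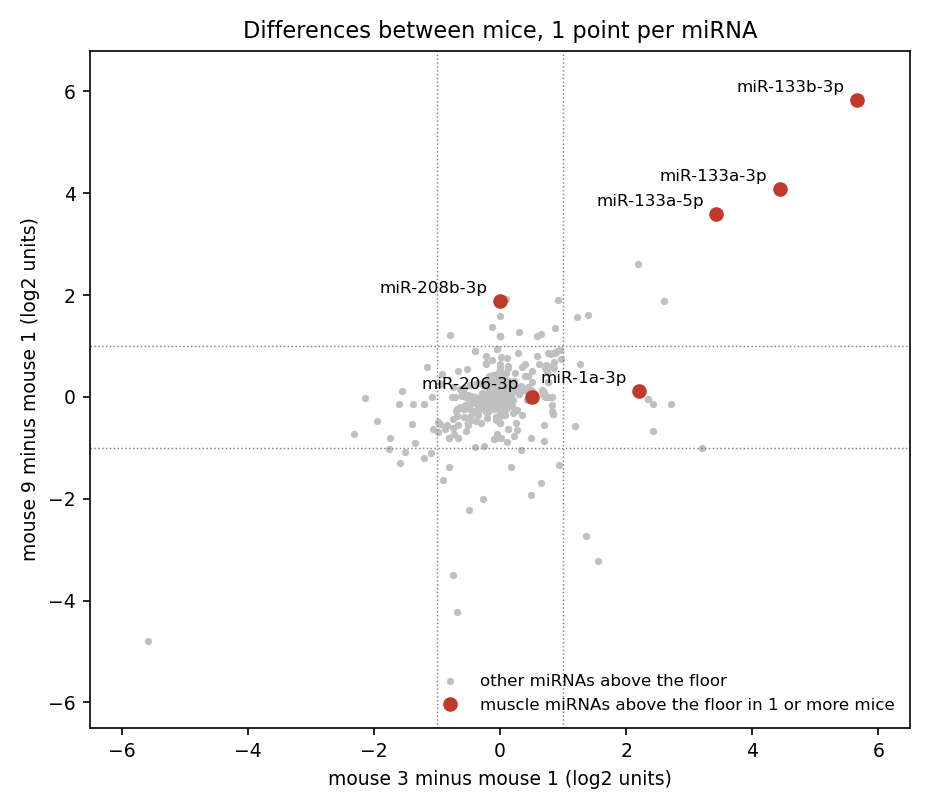
Log2 difference of mouse 9 from mouse 1 (vertical axis) against that of mouse 3 from mouse 1 (horizontal axis) for the 363 miRNAs above the floor in at least 1 mouse, with muscle miRNAs in red and dotted lines at a difference of 1. miR-133b-3p, miR-133a-3p and miR-133a-5p lie at the upper right, apart from other miRNAs, while miR-1a-3p differs in mouse 3 and miR-208b-3p in mouse 9 only. The axes share mouse 1.

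The miRNAs whose pattern over the 3 mice was most like that of miR-133a-3p were sought among the 193 others whose normalized count averaged 100 or more above the floor. Likeness was the root mean square difference of log2 values after each miRNA's own mean was taken off, over 3 mice. miR-133b-3p was nearest at 0.73 log2 units, but how reads were divided between these near-identical strands is not given. Outside the muscle hairpins the nearest were miR-335-5p (1.38), from the imprinted gene Mest, miR-181a-2-3p (1.53), miR-128-3p (1.57), miR-22-3p (1.59) and miR-29b-3p (1.61). The median over the 193 was 2.04.

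The nearest of these moved far less than miR-133a-3p. miR-335-5p had log2 values of 5.78, 7.001 and 7.35 in mice 1, 3 and 9. miR-22-3p, the highest miRNA of mice 3 and 9, had 17.77, 18.67 and 18.67, where 18.67 is the top value of the table and bounds any difference. Likeness over 3 points is given as a description only.

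miRNAs that act in muscle formation but are not among the muscle strands above were compared in the same way. In a list of 24 such regulators, 21 were above the floor in all mice. From mouse 1 to mouse 3, 1 was at least 1 log2 unit higher and 1 lower, and from mouse 1 to mouse 9, 0 were higher and 1 lower, beside 4.96% higher and 5.23% lower of the 363 miRNAs in mouse 3 and 5.79% and 5.23% in mouse 9. The highest were miR-22-3p, miR-26a-5p, miR-181a-5p and miR-378a-3p. miR-26a-5p, which promotes myoblast differentiation, was lower in both comparisons, at 18.67 in mouse 1 and 17.58 in mice 3 and 9. In mouse 1 it held the top value of the table, so the size of this difference is set by the spacing of the highest ranks. The medians of the 24 differences were 0.02 for mouse 3 and 0 for mouse 9.

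In fat miR-133 is known as a restraint on brown fate, and the other miRNAs tied to Prdm16 or to brown and beige fat were given by a list of 22 that leaves miR-133 out. The list was not divided into miRNAs that promote and miRNAs that restrain brown fate, so its counts carry no direction of fate. Of its members, 19 were above the floor in all mice. From mouse 1 to mouse 3, 1 was higher by at least 1 log2 unit and 1 lower, and from mouse 1 to mouse 9, 0 were higher and 5 lower. Over the 363 miRNAs these shares were 4.96% and 5.23% in mouse 3 and 5.79% and 5.23% in mouse 9. Only miR-26a-5p, which is also in the list on muscle formation, passed in the same direction in both comparisons. The list was led by miR-26a-5p and miR-378a-3p. miR-378a-3p had 16.02, 16.72 and 15.47 log2 units in mice 1, 3 and 9. Next came miR-27b-3p, which like miR-133 represses Prdm16, with 15.02, 15.16 and 15.02, and miR-30c-5p with 14.75, 14.75 and 14.41. In mice 3 and 9 miR-133a-3p stood above miR-27b-3p, and in mouse 1 below it.

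The seed match of miR-133 in the Prdm16 transcript is shown because that target ties these muscle miRNAs to fat. The motif searched was GGACCAA, the reverse complement of the seed of miR-133b-3p, on the transcript strand of the longest GENCODE M21 3′ UTR of Prdm16 (4785 bases). It occurred 1 time, starting at base 1617 of the UTR and followed by A, which makes an 8-base match. The window, chr4:154319279-154319308 on the minus strand of GRCm38, has the match in capitals.
Prdm16 3′ UTR: taagtatgtagtgaaGGACCAAAccgtgtg
Of 3930 genes with a 3′ UTR between 0.5 and 1.5 times that length, 17.2% held GGACCAA and 6.06% the 8-base form. The match is a description of letters, and neither Prdm16 nor its repression was measured here.

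Markers of other cells were set beside the muscle miRNAs by mouse. The summed share of the muscle strands ranged from 0.163% to 3.57% over the mice. The smooth muscle and stromal list (6 of 6 above the floor in all mice) ranged from 6.31% to 7.66%, the endothelial list (5 of 5) from 0.919% to 1.14% and the leukocyte list (5 of 7, with miR-155-5p at the floor throughout) from 0.433% to 0.480%. The erythroid list (3 of 4) was highest in mouse 1, at 2.39% against 1.51% and 1.38% in mice 3 and 9. It was led by miR-486-5p, at 15.63, 14.95 and 14.81 log2 units in mice 1, 3 and 9, beside 12.74, 12.20 and 12.07 for miR-451a. miR-486-5p is also among the 24 regulators of muscle formation above, and which cells it came from was not tested. The epithelial list (6 of 11, with miR-96-5p at the floor throughout) was 0.200%, 0.331% and 0.0784% in mice 1, 3 and 9, so that unlike the miR-133 strands it separated mouse 9 from mouse 3. Of the 7 testis and epididymis miRNAs 5 were at the floor throughout, with a sum of 0.00767% to 0.00936%, and the hepatocyte miR-122-5p was at the floor.

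Over the 363 miRNAs, 1.93% were at least 1 log2 unit higher than in mouse 1 in both mice 3 and 9, and 1.65% lower in both. Within these marker lists 1 miRNA differed from mouse 1 by that measure in the same direction in both mice. This was miR-375-3p, known from epithelial and endocrine cells, which was high in mouse 1, at 8.90 log2 units, and low in the others, at 3.32 (the floor) and 4.12. The rest of the epithelial list did not follow it in mouse 3: of the 11, 2 were at least 1 log2 unit higher there than in mouse 1 (miR-205-5p by 2.42 and miR-429-3p by 1.37) and 1 lower, miR-375-3p itself. miR-429-3p is named here after its values were seen. In mouse 9, 0 of the 11 were higher than in mouse 1 and 7 were lower. Over the 363 miRNAs, 4.96% were higher and 5.23% lower in mouse 3, and 5.79% and 5.23% in mouse 9. The part of these cell types in the difference of miR-133a-3p was not tested. Of the other muscle strands, miR-133b-3p (707.8 and 794.5 normalized counts) and miR-133a-5p (97.8 and 111) were high in mice 3 and 9 as miR-133a-3p was. miR-208b-3p reached 26.8 in mouse 9 alone, miR-1a-3p at most 36.3 and miR-206-3p at most 4.18, and miR-208a-3p and miR-499-5p were at the floor in all mice. The tissue was whole fat, in which fewer cells of a type and less RNA per cell cannot be told apart.

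**Figure D4:**
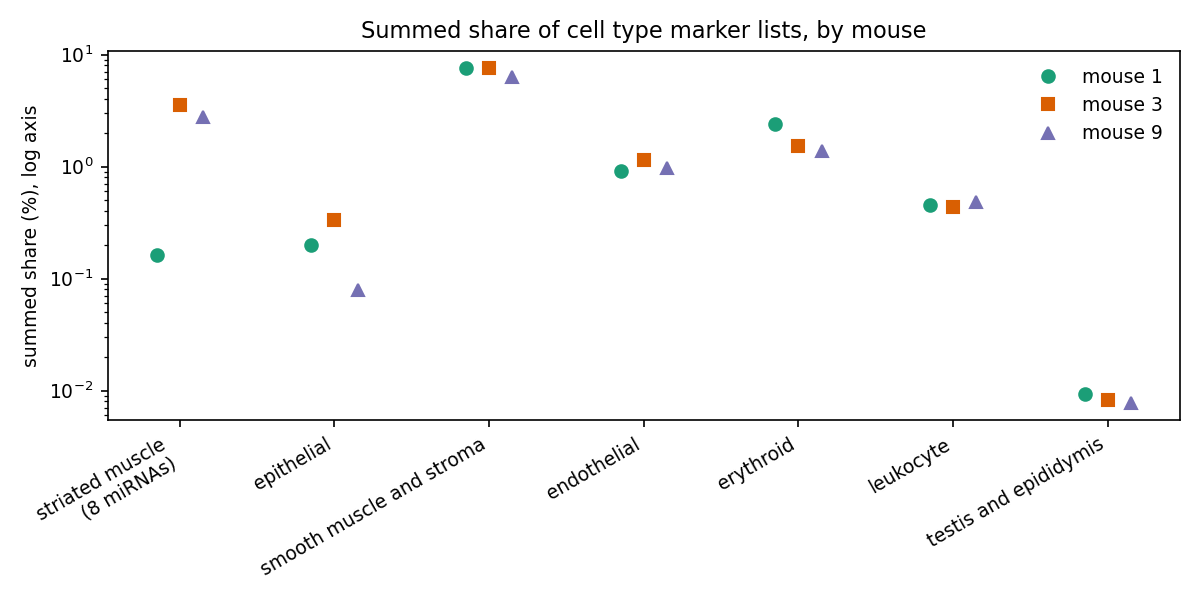
Summed share of normalized counts (vertical axis, percent, log axis) of the 8 striated-muscle miRNAs and of 6 marker lists of other cell types (horizontal axis) in each of the 3 mice. The muscle share goes from 0.163% in mouse 1 to 3.57% in mouse 3, while the smooth muscle and stromal, endothelial and leukocyte shares lie within a narrow range.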

How the data were processed

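Small RNA libraries were prepared from total RNA of frozen epididymal fat of 3 mice, per the labels' protocols. The deposited values are log2, with 1 column per mouse. Per the series' design text, the authors mapped about 13.8 M reads per sample to mm10, divided counts by total usable reads and added 40. What aligner and annotation served is not given in the sources used here. In the table the lowest value is the log2 of 10 and 260 values lie between 10 and 40 on the linear scale, so 10 was taken as the constant. The sorted columns are almost equal, which leaves ranks and makes totals alike by construction, and the step behind this is not stated.

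Linear normalized counts are the power of 2 less 10. Differences use the deposited log2 scale, which understates those near the floor. Levels, shares and differences between mice are described by values, mean and SD, with no test. Strand ratios were tested with limma 3.58.1 (R 4.3.3) over hairpins with both strands listed and the larger at a mean of at least 100, with the prior variance trended on mean level and a threshold of 0.05 on the adjusted p. The script was tested on simulated data. Python 3.11.15, numpy 2.4.6, pandas 2.3.3 and matplotlib 3.10.9 were used. The members and lists were chosen with earlier results of these data known. The miRNAs named are the 8 members, the other strands of their hairpins, the 5 most alike patterns, the 4 highest of the lists on muscle formation and brown fat, and list members at least 1 log2 unit from mouse 1 in the same direction in mice 3 and 9. Some members of the marker lists are named outside this rule: miR-205-5p, miR-429-3p, miR-486-5p, miR-451a and some at the floor. miR-1a-5p had no row of that name. Positions come from GENCODE M21.

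Alternatives were a constant of 1 or 40, median-ratio scaling, other filters and detection minimums, a difference of 2 log2 units, other priors, other sums for the share and leaving out each mouse.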

Additional observations from a re-analysis of the deposited data

How the results depend on the processing

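The depth of each library is not known, so nothing can be said of strands near the floor beyond their listed values. Moreover, 1 group of 3 mice allows no contrast of diets. The share of the 8 muscle strands lay between 1.48% and 3.18% when 1 mouse was left out, and the mean log2 level of miR-133a-3p between 13.98 and 16.20, with the highest values without mouse 1. The distance of miR-133a-3p to miR-133b-3p then ranged from 6.63 to 7.50 log2 units, that to miR-1a-3p from 9.73 to 11.71, and the count of strands above the floor in all mice left from 2 to 4. With a constant of 1 the distance to miR-1a-3p was 12.74, because strands at the floor are then set lower. At a minimum of 10 or 100 normalized counts 1 strand was seen in all mice. From mouse 3 to mouse 9, 2 strands were lower with a constant of 1 and 0 with 40, and 0 were higher with 40 or at 2 log2 units. With a mean of at least 1000, 67 hairpins could be tested, of which 39 had the 5p and 28 the 3p strand higher. The miR-133a strand ratio kept its sign and its call in all alternatives run, with limma adjusted p from 4.31e-07 to 0.00139. The miR-133b alternatives were added after the data were seen. Their limma adjusted p ranged from 0.00022 to 0.243, and a mean of at least 1000 left miR-133b untested. The sign of the miR-133b ratio was fixed, since its 5p strand was at the floor in all mice. Of 61 planned values other than those leaving out a mouse, 52 kept their direction and size within the limits set. No paired contrast of groups was possible because there is 1 group, while strand ratios and distances between strands were taken within each mouse.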
